A study of Homo sapiens with 10 samples.

Results

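The D-type cyclins CCND1, CCND2 and CCND3, the kinases CDK4 and CDK6 that they activate, the inhibitors CDKN1B, CDKN2A, CDKN2B and CDKN2C, and RB1, the main substrate, were followed across 2 neuroblastoma cell lines and a drug treatment. These 10 genes were chosen by symbol in the platform annotation, and 9 of them had a probe set, 1 each, among 17709 named gene probe sets of 21448 in all. CDKN2C was not analysed here. Together the genes form the switch by which growth signals commit a cell to copy its DNA. A D-type cyclin bound to CDK4 or CDK6 phosphorylates the retinoblastoma protein, the product of RB1, which then releases E2F transcription factors and with them the genes of S phase. The INK4 proteins from CDKN2A and CDKN2B block CDK4 and CDK6 directly, and p27, from CDKN1B, binds cyclin and CDK complexes. In neuroblastoma the switch is often pushed toward division by high cyclin D1, and in some tumours by gain of CDK4.

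SK-N-FI and SK-N-AS are established human neuroblastoma lines. Cells were exposed for 48 h to 30 µM BG-P1600-TAT, a PEG-linked conjugate aimed, by the series title, at the norepinephrine transporter and at integrin αvβ3, and control cells received PBS. Whole-transcript arrays were available for 2 control and 2 treated SK-N-FI samples, numbered 1 and 2 in each arm. SK-N-AS had 3 control samples (25, 26 and 27) and 3 treated samples (28, 29 and 30), whose titles shorten the compound to BG-P-TAT, read here as the same agent. No label ties the SK-N-AS arrays to separate cultures. A p-value here rests on array-to-array spread, possibly technical, and precision is limited by how few arrays there were. Both lines were grown in IMDM with serum. The labels spell the first line SKNF1 in one field and call SK-N-AS a primary cell line in another.

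Values are log2 signals per probe set, and a probe set counted as above background on an array where it passed a threshold set by that array's negative controls, the 95th percentile of 612 probe sets (6.75 to 8.26 over the 10 arrays). Between 32.9% and 44.3% of gene probe sets did so. SK-N-FI arrays had medians of 7.02 to 7.07, against 6.02 to 6.09 for SK-N-AS arrays, so the lines do not share a scale. Every difference between the lines was therefore also computed after quantile normalization of all 10 arrays together and after centring each array on its median. It is described as holding only where it passed the test in 1 direction under all 3 scalings. If the lines were also run apart, line and array run cannot be told apart under any scaling. Of 6 measured markers of noradrenergic neuroblastoma cells (7 in the list), DBH and PHOX2A were above background on all 4 SK-N-FI arrays and on none of 6 SK-N-AS arrays, HAND2, GATA3 and ISL1 were above it on every array, and TH on none. In control arrays 3 of these 6, DBH, PHOX2A and ISL1, were lower in SK-N-AS under all 3 scalings, against 18.9% of all probe sets. Of 7 mesenchymal markers, FN1 and FOSL1 were above background on all 6 SK-N-AS arrays and on no SK-N-FI array, VIM, SNAI2 and CD44 on every array of both lines, YAP1 on 3 SK-N-AS arrays and PRRX1 on 1. Under all 3 scalings 4 of these 7 were called higher in SK-N-AS, against 11.4% of all probe sets, and CD44 was lower. PRRX1 was among the 4, though below background in both control groups. Of 7 markers of blood, endothelial and epithelial cells, PTPRC, the leukocyte antigen CD45, exceeded background on 5 of 6 SK-N-AS arrays, and the other 6 did so on no array of either line. PTPRC was higher in SK-N-AS control arrays under all 3 scalings, where 2 of 3 were above background, and its part in the differences between the lines was not tested. CD14 was called too, but it was below background throughout and no level difference is read from it.

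Promoter windows show where these transcripts begin, and why the CDKN2A signal needs care. CDKN2A makes the INK4 protein p16 from one start and the unrelated p53 regulator ARF from another, farther upstream, and the probe set's annotation lists transcripts of both starts, so its value does not separate them. The windows run from 250 bases before to 50 bases after a RefSeq transcript start (GRCh38.p14), and 8 of the 10 genes had an entry. Both CDKN2A starts are printed below, with the CDKN1B window for another inhibitor that differed between the lines. The CDK4 window is printed for a kinase whose deposited values overlapped between the lines. Capitals mark matches on either strand to the E-box CACGTG, the GC box GGGCGG and the CCAAT box CCAAT.
CDKN2A, ARF start, chr9:21995275-21995574, minus strand: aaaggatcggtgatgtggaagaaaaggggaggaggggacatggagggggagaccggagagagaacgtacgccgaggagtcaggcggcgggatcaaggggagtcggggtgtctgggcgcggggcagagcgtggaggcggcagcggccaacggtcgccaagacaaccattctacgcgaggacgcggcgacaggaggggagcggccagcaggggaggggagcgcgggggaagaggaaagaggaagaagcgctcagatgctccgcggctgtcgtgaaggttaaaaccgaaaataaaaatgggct
CDKN2A, p16 start, chr9:21974808-21975107, minus strand: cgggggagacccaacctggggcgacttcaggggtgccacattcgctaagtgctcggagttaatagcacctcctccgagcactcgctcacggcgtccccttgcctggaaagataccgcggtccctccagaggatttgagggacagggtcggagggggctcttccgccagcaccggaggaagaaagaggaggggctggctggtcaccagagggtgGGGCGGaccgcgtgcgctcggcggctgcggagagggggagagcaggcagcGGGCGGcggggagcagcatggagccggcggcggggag
CDKN1B, chr12:12717118-12717417, plus strand: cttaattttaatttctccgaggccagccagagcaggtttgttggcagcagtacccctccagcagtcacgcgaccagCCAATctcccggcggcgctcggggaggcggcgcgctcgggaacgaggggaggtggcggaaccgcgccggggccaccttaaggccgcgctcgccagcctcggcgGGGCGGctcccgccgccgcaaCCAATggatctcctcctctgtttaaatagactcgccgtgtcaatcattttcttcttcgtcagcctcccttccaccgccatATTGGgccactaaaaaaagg
CDK4, chr12:57752261-57752560, minus strand: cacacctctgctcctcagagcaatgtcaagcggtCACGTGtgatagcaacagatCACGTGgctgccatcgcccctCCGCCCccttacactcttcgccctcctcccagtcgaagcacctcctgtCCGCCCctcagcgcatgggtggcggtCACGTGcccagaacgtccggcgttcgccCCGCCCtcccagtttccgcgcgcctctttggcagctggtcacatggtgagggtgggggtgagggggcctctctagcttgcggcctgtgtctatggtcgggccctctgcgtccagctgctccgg
The CDK4 window held 3 E-boxes and 3 GC boxes. At least 1 E-box was found in 7.26% of 35116 windows of the same length, and at least 1 GC box in 45%. The CDKN1B window held 3 CCAAT boxes, a motif in 34.6% of windows, and 1 GC box. The p16 window held 2 GC boxes and the ARF window none of the searched motifs, which also included 3 forms of the E2F site, namely TTTGGCGC or else TTTCGCGC or else TTTCCCGC (at least 1 of them in 2.74% of windows), and the AP-1 site TGAGTCA (in 4.95%). No matches of different motifs overlapped in the printed windows, and a match describes letters, not binding.

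Of the 9 measured genes, 5 were above background on all 10 arrays: CCND1, CCND3, CDK4, CDKN1B and RB1. CDK6 was above it on 9 arrays and CDKN2A on 6. CCND2 and CDKN2B were above it on none, so that their values give no level and no fold.

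**Figure D1:**
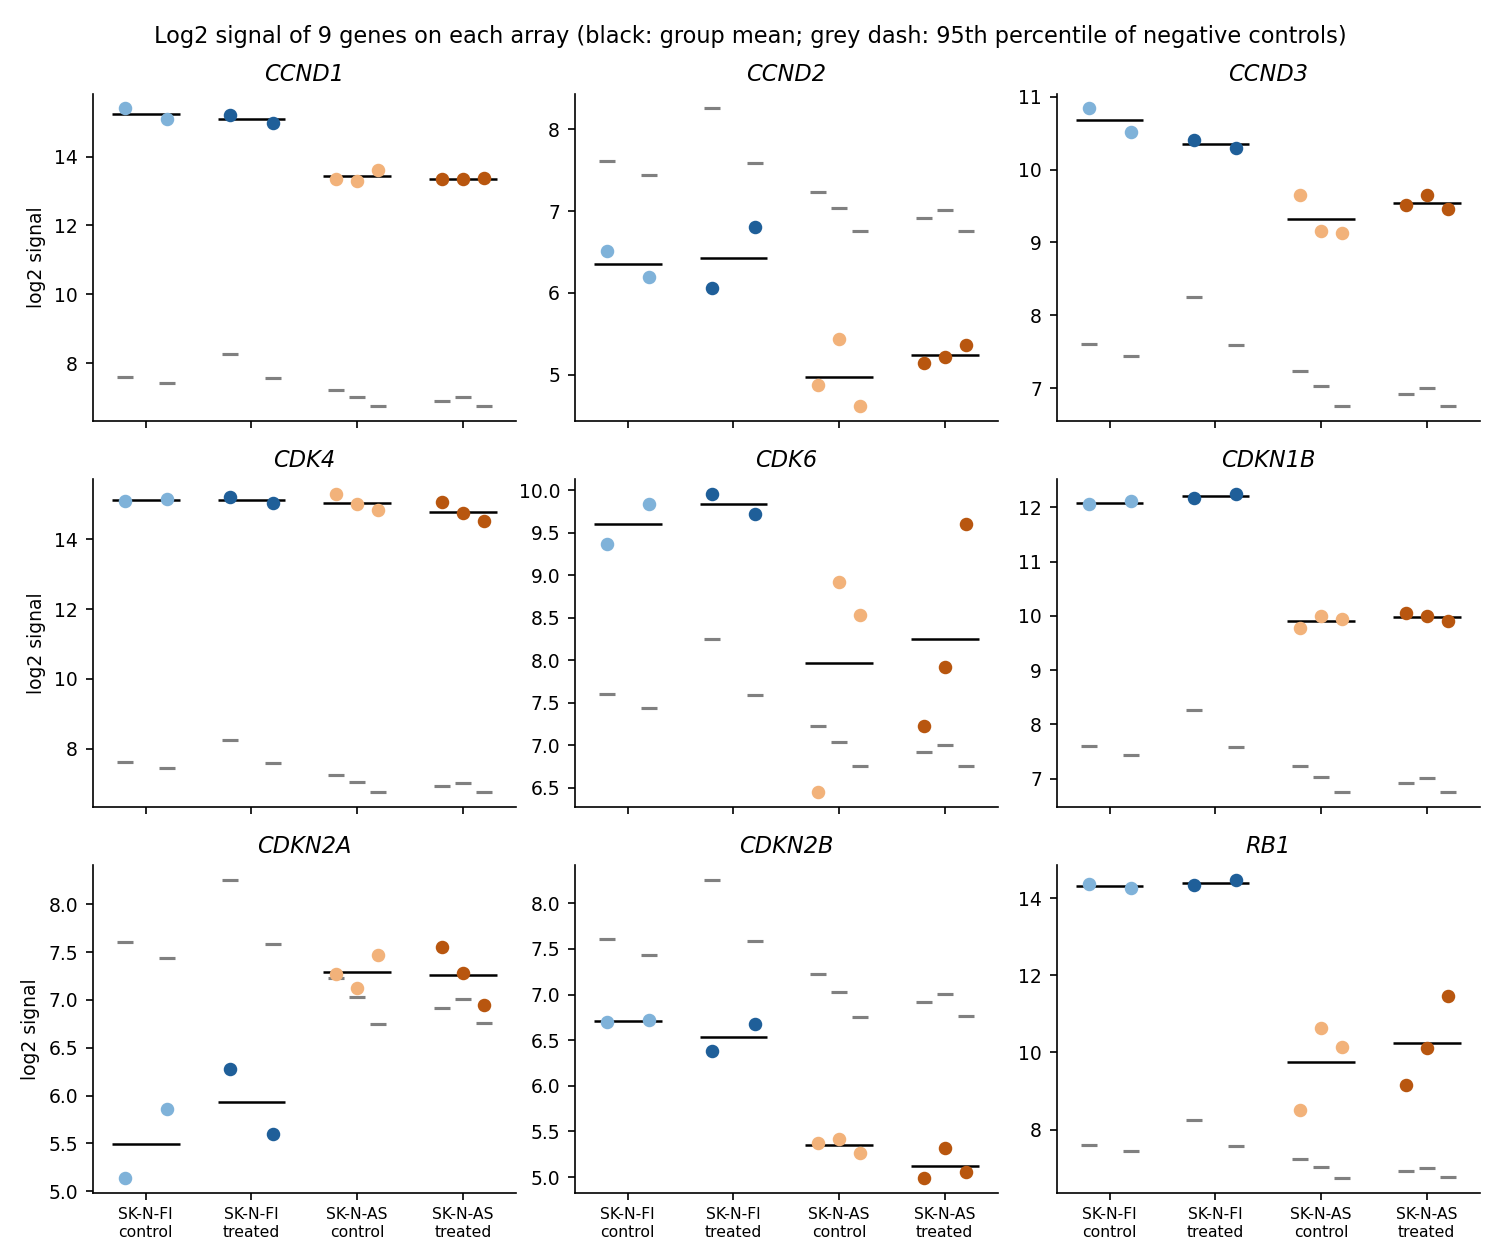
Log2 signal of each of the 9 measured genes on every array, in 1 panel per gene, by line and treatment. Points are arrays, black lines group means and grey dashes each array's background threshold; RB1 spans 14.26 to 14.47 on SK-N-FI arrays and 8.50 to 11.45 on SK-N-AS arrays.

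Among the D-type cyclins, CCND1 was the one with a difference between the lines that held. CCND1 encodes cyclin D1. Its log2 signal was 15.40 and 15.09 in SK-N-FI control arrays and 15.20 and 14.98 in treated ones, and 13.36, 13.29 and 13.62 in SK-N-AS control arrays and 13.34, 13.36 and 13.37 in treated ones. Every SK-N-FI array lay above every SK-N-AS array. In control arrays SK-N-AS minus SK-N-FI was -1.82 (SE 0.21, 95% interval -2.29 to -1.35, limma adjusted p = 1.2e-05), which is 3.53-fold. The difference was -1.37 after quantile normalization and -0.98 after median centring, and in treated arrays the 3 values were -1.73, -1.16 and -0.90. A larger control difference was found for 26.1% of gene probe sets as deposited and for 24.5% after quantile normalization.

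CCND3, which encodes cyclin D3, had log2 signals of 10.84 and 10.52 in SK-N-FI control arrays and 10.41 and 10.30 in treated ones. SK-N-AS gave 9.66, 9.16 and 9.13 in control arrays and 9.51, 9.65 and 9.46 in treated ones. On the deposited scale SK-N-AS was lower (-1.36, limma adjusted p = 0.00026), but the control difference was 0.34 after quantile normalization (adjusted p = 0.28) and -0.52 after median centring (adjusted p = 0.075), so no direction is given. In treated arrays quantile normalization turned the sign, to 0.86 (adjusted p = 0.013), from -0.81 as deposited. CCND2, which encodes cyclin D2, measured 6.05 to 6.80 on SK-N-FI arrays and 4.61 to 5.43 on SK-N-AS arrays, all below background.

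The kinases did not separate the lines on every scale. CDK4 had log2 signals of 15.10 and 15.15 in SK-N-FI control arrays, 15.21 and 15.04 in treated ones, 15.30, 15.02 and 14.85 in SK-N-AS control arrays and 15.07, 14.76 and 14.54 in treated ones. The arrays of the lines overlapped as deposited. After median centring they did not: the highest SK-N-FI array was at 14.71 and the lowest SK-N-AS array at 14.86. The control difference was -0.08 (95% interval -0.59 to 0.43, limma adjusted p = 0.80) as deposited and 0.21 after quantile normalization, while median centring gave 0.77 (adjusted p = 0.016), higher in SK-N-AS.

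CDK6 was even in SK-N-FI, at 9.37 and 9.84 in control and 9.96 and 9.72 in treated arrays, and uneven in SK-N-AS. There it measured 6.45, 8.92 and 8.53 in control arrays and 7.22, 7.92 and 9.61 in treated ones. Control array 25 was below background, and treated array 30 was within the SK-N-FI range as deposited. After quantile normalization control arrays 26 (9.56) and 27 (9.17) and treated array 30 (10.21) lay above that range (8.39 to 8.90). The control difference of -1.64 (95% interval -3.17 to -0.10) did not pass the test (limma adjusted p = 0.063), was -0.01 after quantile normalization, and passed without array 26 (-2.11, adjusted p = 0.024). In treated arrays the difference was -1.59 (adjusted p = 0.070), and it passed without array 30 (-2.27, adjusted p = 0.0077).

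The inhibitors went in opposite directions. CDKN1B, whose product p27 restrains cyclin E and CDK2 and also helps cyclin D assemble with its kinases, was higher in SK-N-FI. Its log2 signal was 12.05 and 12.12 in control and 12.17 and 12.24 in treated SK-N-FI arrays, against 9.78, 10.00 and 9.95 in control and 10.04, 10.00 and 9.90 in treated SK-N-AS arrays. On the deposited scale the ranges of the lines were far apart and the spread within each arm was small (SD 0.05 to 0.11). The control difference was -2.18 (SE 0.20, 95% interval -2.61 to -1.74, limma adjusted p = 1.5e-06), or 4.53-fold, but it was -0.65, or 1.57-fold, after quantile normalization (adjusted p = 0.019) and -1.34 after median centring. In treated arrays the difference was -2.23 as deposited, -0.73 and -1.39. A larger control difference was found for 19.9% of gene probe sets as deposited and for 52.1% after quantile normalization.

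CDKN2A had the opposite direction. In SK-N-FI it measured 5.14 and 5.86 in control arrays and 6.27 and 5.60 in treated ones, below background on all 4. In SK-N-AS it measured 7.27, 7.13 and 7.47 in control arrays and 7.56, 7.28 and 6.94 in treated ones, above background on all 6 by 0.04 to 0.72 log2 units. SK-N-AS was higher in control arrays under all 3 scalings (limma adjusted p = 0.00020 as deposited) and in treated arrays (adjusted p = 0.0019). The SK-N-FI value is only a bound, and the SK-N-AS mean did not exceed the mean SK-N-FI background level, so no fold is given.

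CDKN2B, which encodes the INK4 protein p15 and lies beside CDKN2A, measured 6.38 to 6.72 on SK-N-FI arrays and 4.99 to 5.42 on SK-N-AS arrays, below background throughout. Its control difference lost its call with median centring (limma adjusted p = 0.052), while in treated arrays SK-N-AS was called lower under all 3 scalings. Both groups being below background, no level difference is read from it.

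RB1 had the largest difference between the lines among the 9 genes in control arrays, under all 3 scalings. Its log2 signal was 14.36 and 14.26 in SK-N-FI control arrays and 14.33 and 14.47 in treated ones. In SK-N-AS it was 8.50, 10.62 and 10.15 in control arrays and 9.15, 10.12 and 11.45 in treated ones, above background on each. The lowest SK-N-FI array lay well above the highest SK-N-AS array. In control arrays SK-N-AS minus SK-N-FI was -4.56 (SE 0.63, 95% interval -5.92 to -3.19, limma adjusted p = 4.5e-05), or 23.5-fold, and 2.84% of gene probe sets had a larger difference. Quantile normalization gave -3.42, or 10.7-fold (adjusted p = 0.00055), and median centring -3.71, or 13.1-fold. In treated arrays the difference was -4.16 (95% interval -5.52 to -2.80), -3.06 and -3.33.

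**Figure D2:**
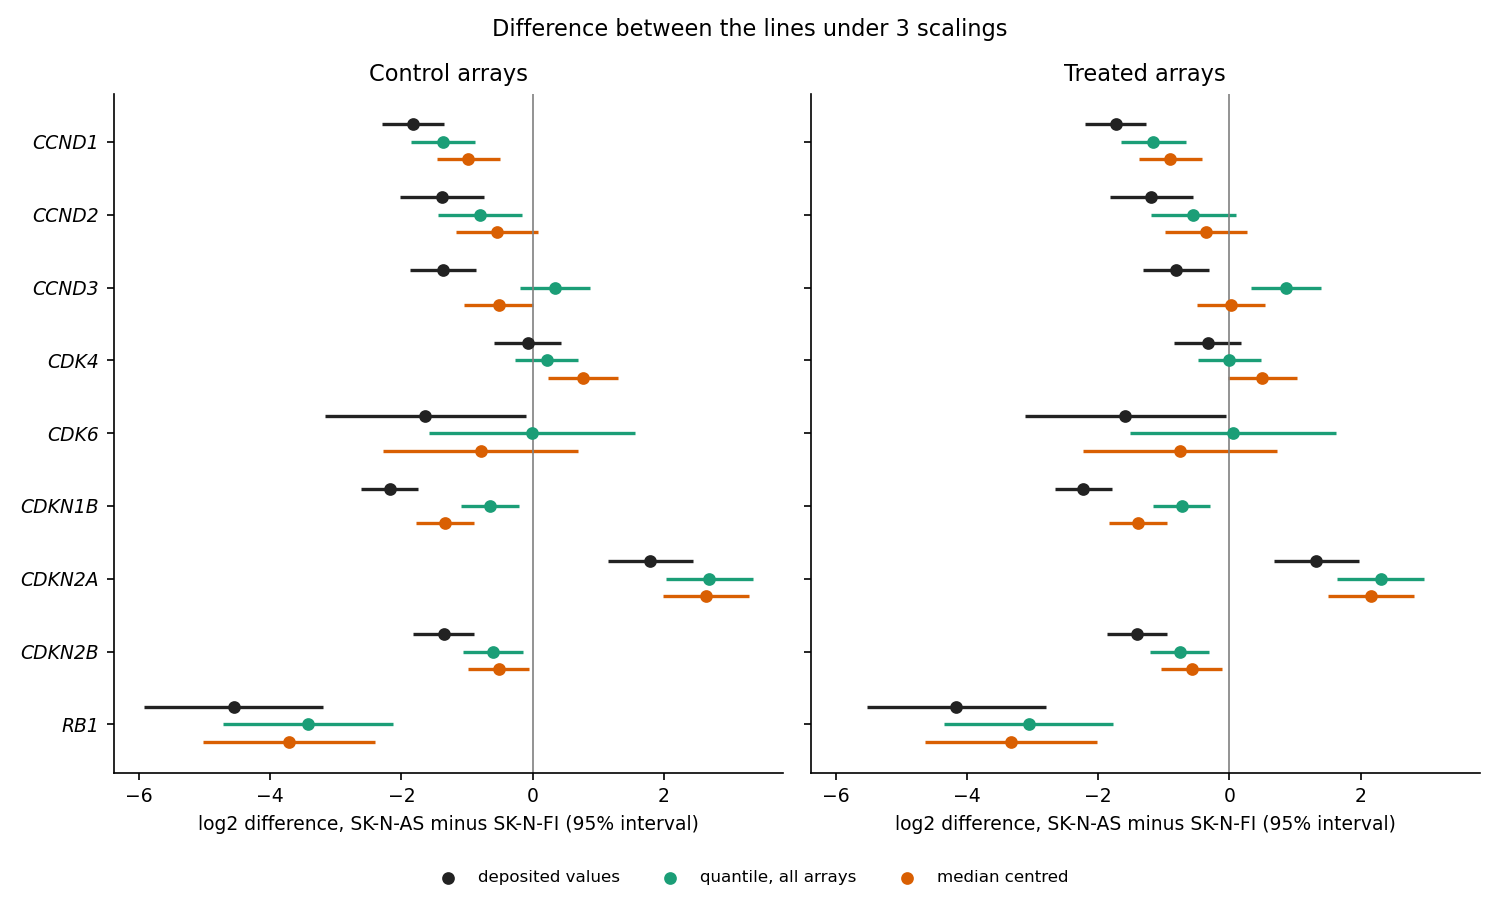
Log2 difference, SK-N-AS minus SK-N-FI, with its 95% interval, for the 9 genes in control and treated arrays under 3 scalings (colours). RB1, CDKN1B and CCND1 lie below 0 and CDKN2A above 0 under every scaling, while CCND3, CDK4 and, in treated arrays, CDK6 change side.

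Over the 9 genes in control arrays, 6 were called higher in SK-N-FI as deposited, against 47.8% of all 21448 probe sets, and 1 in SK-N-AS, against 11.5%. The 6 include CCND2 and CDKN2B, which were below background on every array, as they do in treated arrays. Under all 3 scalings 3 genes were higher in SK-N-FI (CCND1, CDKN1B and RB1), against 18.9% of all probe sets, and 1 in SK-N-AS (CDKN2A), against 11.4%. In treated arrays the deposited counts were 6 and 1, against 47.8% and 11.2%, and under all 3 scalings 4 genes were higher in SK-N-FI, the addition being CDKN2B, from which no level difference is read, against 18.3%, and 1 in SK-N-AS, against 11.1%. In control and treated arrays both, 3 genes were higher in SK-N-FI, against 16.2% of all, and 1 in SK-N-AS, against 9.09%. When a difference of over 2-fold was required (limma's treat), on the deposited scale alone, CCND1 (adjusted p = 0.0058), CDKN1B (0.00028), RB1 (0.00038) and CDKN2A (0.037) passed in control arrays, and CDKN2A did not in treated arrays (adjusted p = 0.39). On other scales the control differences of CDKN1B (1.57-fold after quantile normalization) and CCND1 (1.97-fold after median centring) were under 2-fold, and CDKN2A is bounded by background in SK-N-FI.

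RB1 and CDK6 also varied within SK-N-AS far more than in SK-N-FI. The SD within the SK-N-AS arms was 1.13 for RB1, and 0.783% of gene probe sets had a larger one. It was 1.28 for CDK6, exceeded by 0.350%. In SK-N-FI these SDs were 0.085 and 0.26. The other 7 genes had SK-N-AS SDs of 0.097 (CDKN1B) to 0.31 (CCND2). On the deposited scale the 6 arrays had the same order for RB1 and CDK6. From low to high it was 25, 28, 29, 27, 26 and 30, with control and treated arrays interleaved. After quantile normalization arrays 27 (10.71) and 29 (10.77) traded places for RB1 but not for CDK6.

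The first principal component of the 6 SK-N-AS arrays, which held 50% of their variance over all gene probe sets, had scores of -57.5 for array 25, -31.0 for array 28, 4.33 for array 27, 6.71 for array 29, 26.9 for array 26 and 50.6 for array 30. Arrays 25 and 28 were at one end and array 30 at the other for the component and for both genes, and its part in their values was not tested. Without arrays 25 and 28 the RB1 difference between the lines was -3.93 in control and -3.62 in treated arrays, and that of CDK6 was -0.88 and -1.07. In bulk RNA, fewer cells expressing a gene and less of its RNA per cell cannot be told apart.

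**Figure D3:**
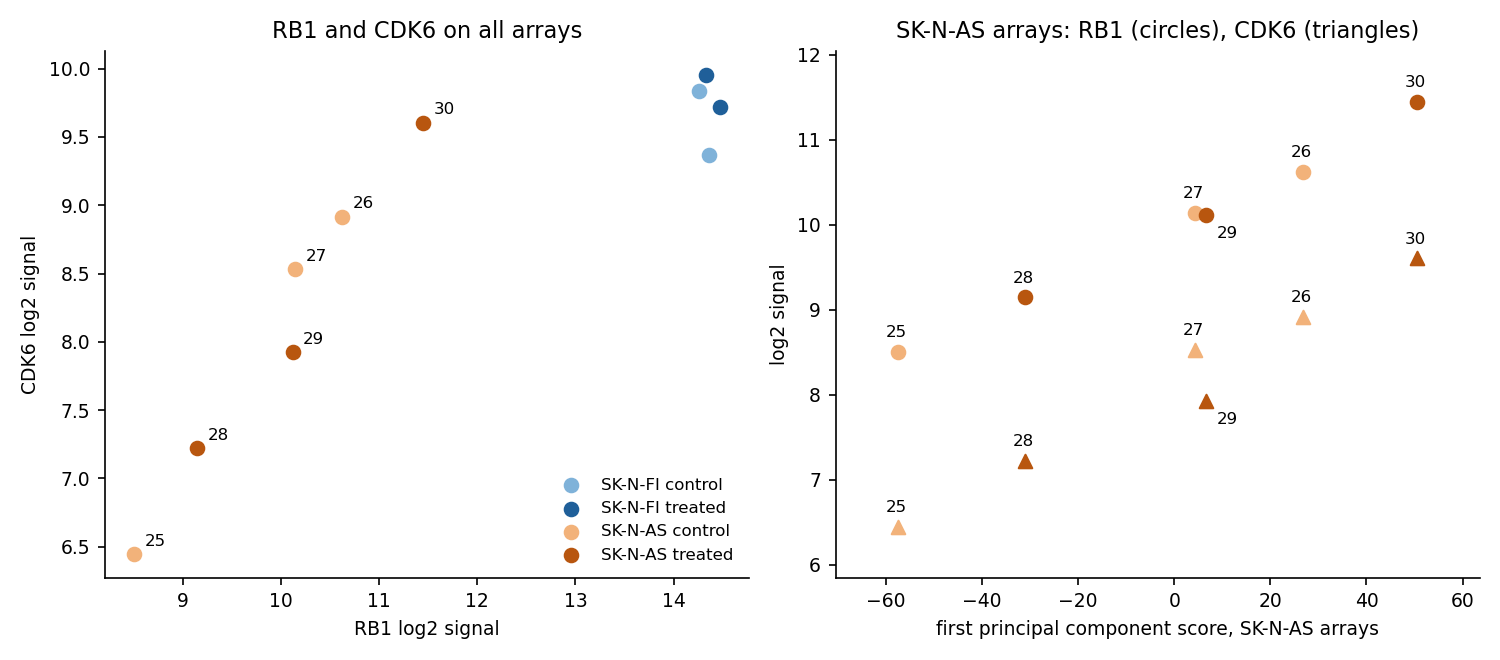
Left, log2 signal of RB1 (x) and CDK6 (y) on each array, coloured by group; right, both genes on the 6 SK-N-AS arrays, numbered, against the first principal component of those arrays. On the deposited scale shown, the SK-N-AS arrays have the same order in both genes, from array 25 to array 30. The SK-N-FI arrays lie together.

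The comparison over all 10 arrays took in 7892 named gene probe sets, each above background on all arrays of either line or of both. Those with signals most like RB1 were COPS2, a COP9 signalosome subunit (Pearson r = 0.999), DIAPH3, a formin (0.999), and AP3M1, an adaptor subunit (0.998). For CCND1 they were CHST11 (0.998), CIZ1 (0.997) and PIP4K2B (0.997), and for CDKN1B they were PARP2, LRRN1 and ERC1 (0.999, 0.999 and 0.998). Such values are common here, since the arrays fall into 2 lines. Of these compared probe sets 27% had an r over 0.95 with RB1, 41.5% with CCND1 and 45.2% with CDKN1B. Within the 6 SK-N-AS arrays, a comparison added after the values were seen, TCF4, EIF2S2 and NUCKS1 were most like RB1 (each 0.998) and PCNX4, NOP58 and NEIL3 most like CDK6 (0.997, 0.996 and 0.996). There 8.75% of 5807 named probe sets above background on all 6 arrays had an r over 0.95 with RB1, and 6.73% of 5808 with CDK6.

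None of the 9 genes was called as responding to BG-P1600-TAT in either line. In SK-N-FI limma called 0% of the 21448 probe sets, with 611 at an unadjusted p under 0.05, and 0 of the 9 genes were among those 611. The largest changes were 0.44 for CDKN2A (95% interval -0.33 to 1.21), below background in both arms, and -0.33 for CCND3 (-0.85 to 0.20). CDK6 changed by 0.24 (-0.34 to 0.82), CCND1 by -0.15 (-0.69 to 0.38), CDKN1B by 0.12 (-0.37 to 0.61) and RB1 by 0.09 (-0.41 to 0.58). Limma's adjusted p was 1 for each. CDKN1B had both treated arrays above both control arrays, as did 13.8% of all probe sets, while CCND3 and CDKN2B had both treated arrays below, as did 14% of all.

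In SK-N-AS limma likewise called 0% of probe sets, with 557 at an unadjusted p under 0.05 and 0 of the 9 genes among them. The change of RB1 was 0.48 (95% interval -0.98 to 1.95), and it was -0.15 without array 25 and -0.12 without array 30. That of CDK6 was 0.28 (-1.35 to 1.92), and it was -0.47 and -0.39 without the same arrays. The steadier genes gave narrower bounds: 0.07 for CDKN1B (-0.36 to 0.50), -0.07 for CCND1 (-0.51 to 0.38), 0.22 for CCND3 (-0.27 to 0.72) and -0.26 for CDK4 (-0.78 to 0.25). CDKN2A changed by -0.03 (-0.54 to 0.49). Its signal lay only 0.04 to 0.72 log2 units above background, so a fall could be understated. Treated and control arrays overlapped for all 9 genes, whereas treated arrays lay wholly higher for 3.29% of all probe sets and wholly lower for 4.02%.

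**Figure D4:**
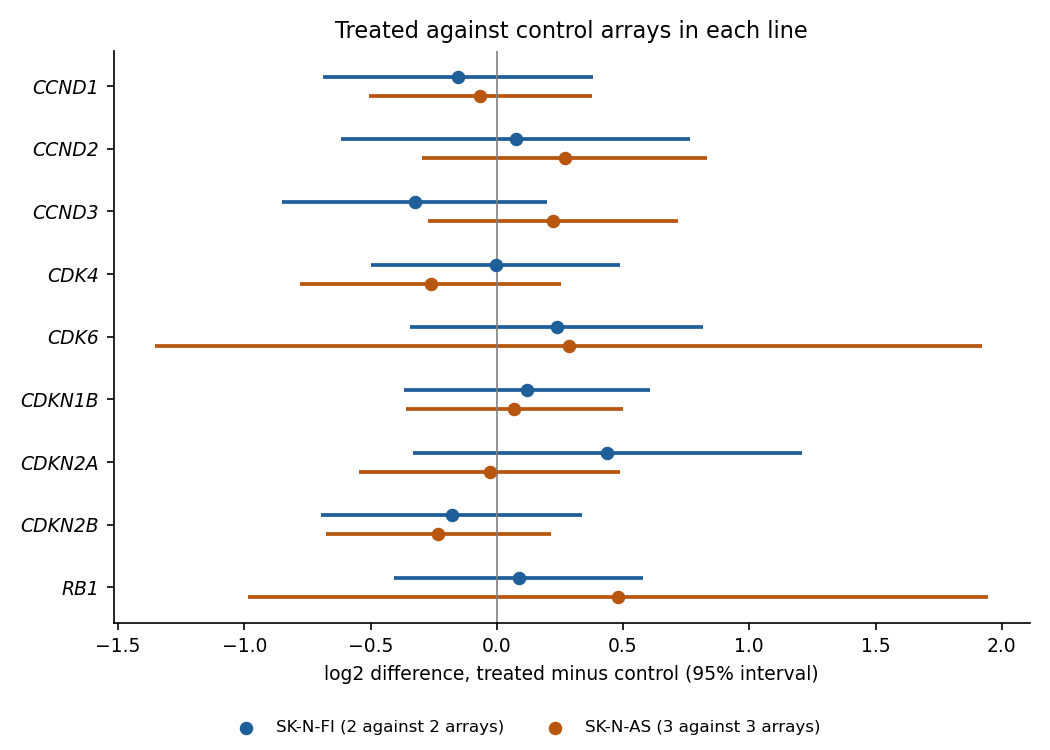
Log2 difference, treated minus control, with its 95% interval, for the 9 genes in each line (colours). All intervals include 0, and those of RB1 and CDK6 in SK-N-AS are the widest.

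The interval of the change lay within 2-fold in both directions for 8 of the 9 genes in SK-N-FI, CDKN2A being the exception, and for 7 in SK-N-AS, where RB1 and CDK6 were the exceptions. Over all probe sets this held for 84.9% and 82.1%. The counts of 8 and 7 include CCND2 and CDKN2B, below background on every array, so their intervals bound no change in level. In SK-N-AS the count also includes CDKN2A, whose signal was close to background. The difference of the treatment effects between the lines was called for 0% of probe sets by limma, with 457 at an unadjusted p under 0.05 and 0 of the 9 genes among them. Its size was 0.55 for CCND3 (95% interval -0.17 to 1.26), -0.47 for CDKN2A (-1.38 to 0.44), 0.39 for RB1 (-1.53 to 2.32) and -0.26 for CDK4 (-0.98 to 0.46).

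The genes around the switch were followed by list, with calls under all 3 scalings in control arrays. Over all 21448 probe sets, 18.9% were so called higher in SK-N-FI and 11.4% higher in SK-N-AS. Of 3 further CDK inhibitors none was called: CDKN1A, which encodes p21, had a difference of -2.50 as deposited (limma adjusted p = 0.00011) but -0.82 after quantile normalization (adjusted p = 0.12). Of the other pocket proteins, RBL1, which encodes p107, was lower in SK-N-AS (-2.85, and -1.16 after quantile normalization), while RBL2 was not called (-1.74 and -0.03). None of the 3 genes of the CDK-activating kinase was called.

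Of 10 E2F and DP genes, SK-N-FI was higher for 5 and SK-N-AS for none, against 18.9% and 11.4% of all probe sets. E2F1, E2F2 and E2F8 were below background in SK-N-AS control arrays. On the deposited scale SK-N-FI was at least 3.61-fold, 4.21-fold and 9.16-fold higher. TFDP1, an E2F partner, differed by -3.09 (-1.66 after quantile normalization) and TFDP2 by -1.93 (-0.57). Of 6 genes of the step after RB1, 4 were higher in SK-N-FI, against 18.9% of all probe sets. CDK2 differed by -4.75 (-3.56 after quantile normalization, limma adjusted p = 6.7e-07) and CCNA2, cyclin A2, by -2.94 (-1.90). As deposited, CCNE2, cyclin E2, and CDC25A, the phosphatase that activates CDK2, were at least 6.58-fold and 4.69-fold higher in SK-N-FI.

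Of 13 measured genes of the turnover and control of these proteins (15 in the list), 4 were higher in SK-N-FI. Of all probe sets 18.9% were. SKP2, which marks p27 for degradation, differed by -3.11 (-1.92 after quantile normalization), EZH2, which can silence CDKN2A, by -3.46 (-1.93), and GSK3B, which phosphorylates cyclin D1, by -2.65 (-1.25). FBXO31, an F-box protein, was at least 3.96-fold higher in SK-N-FI on the deposited scale. Of 21 measured S phase genes that E2F controls (22 in the list), SK-N-FI was higher for 19, against 18.9% of all probe sets. TK1 and UHRF1 were not called. RRM2, a ribonucleotide reductase subunit, differed by -5.35 (-4.10) and MCM5, of the replicative helicase, by -4.04 (-2.48). GINS2 was at least 21.2-fold higher in SK-N-FI on the deposited scale. The median difference of this list was -2.92, against -0.61 over all probe sets, and -1.46 against 0.03 after quantile normalization.

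**Figure D5:**
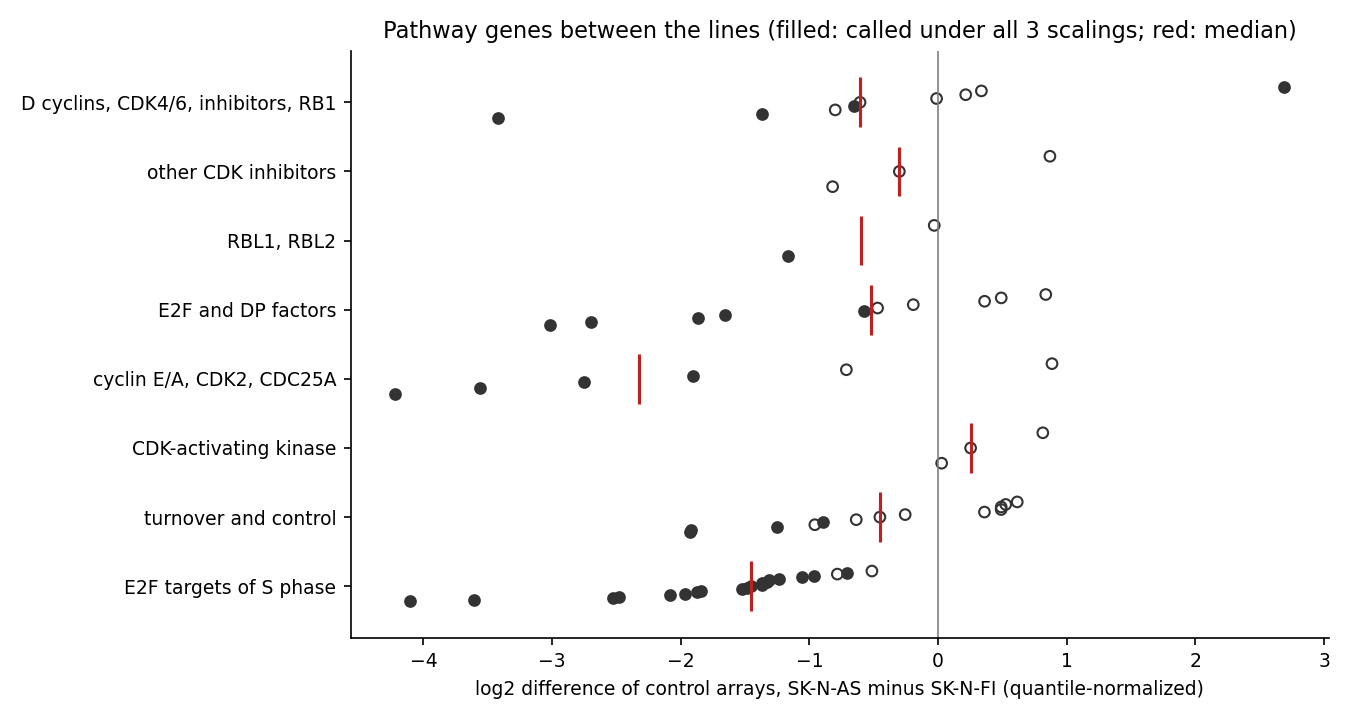
Log2 difference in control arrays, SK-N-AS minus SK-N-FI, after quantile normalization, for the 9 genes (top row) and each measured gene of the lists around the switch. Each point is a gene, filled where called under all 3 scalings, and red bars are medians; the S phase genes lie below 0, with a median of -1.46.

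With the conjugate, none of the 78 genes of these lists and markers was called in SK-N-FI or in SK-N-AS by limma. CDKN2D, which encodes the INK4 protein p19, had an unadjusted limma p of 0.029 in SK-N-AS (0.55, 95% interval 0.07 to 1.04). All 6 arrays were below background, and the gene was named after its values were seen. In that line 1 mesenchymal marker and 1 marker of other cell types also had an unadjusted limma p under 0.05, as did 557 of all 21448 probe sets. In SK-N-FI 1 marker of other cell types did, against 611 of all probe sets. The S phase genes had a median change of -0.07 for SK-N-FI cells and 0.04 for SK-N-AS cells.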

How the data were processed

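Total RNA was hybridised to Affymetrix whole-transcript arrays, per the labels' protocols. The authors deposited log2 signals per probe set, made with RMA or Transcriptome Analysis Console 4.0.1.36 or both, per the submitters' processing notes, which give no steps. RMA normalizes by quantiles and so takes out a shift common to an array, and the array medians differ between the lines as if each line had been normalized separately. The genome build is not given in the sources used here.

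Of 24351 probe sets, 2903 controls were left out of the tests. The platform annotation gave 1 symbol to 17709 of the other 21448 and none to 3739. A symbol was represented by its brightest probe set by mean over the 10 arrays. Groups came from the sample titles. Treatment was tested in each line on its own, and the lines and the treatment effects in a fit of all 10 arrays in 4 groups, with limma 3.58.1 in R 4.3.3 (lmFit, eBayes) and Benjamini-Hochberg adjustment over 21448 probe sets at 0.05. A fold between groups is given as "at least" where the dimmer group was below background on all its arrays. Such a fold was computed on the deposited values only, so it is no lower bound under the other scalings. The scripts were tested on simulated data.

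The genes of each list named were up to 4 with the smallest p in control arrays, any behind a count of 5 or fewer, and, for the 3 of the 9 genes with the largest deposited differences that held (on the other scales CDKN2A would be among them), the 3 genes with the highest r. The genes, lists and tests were chosen with earlier results of these data known. In SK-N-FI, where both arms carry numbers 1 and 2, same-numbered deviations correlated at -0.17, so the numbers were not taken as pairs. Alternatives were a trend and robust prior, both other scalings, a filter on dim probe sets, a shared fit, limma's treat, a replicate block and leaving out each array in turn.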

Additional observations from a re-analysis of the deposited data

How the results depend on the processing

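No setting called any of the 21448 probe sets for the treatment or for the difference of its effects. With a replicate block in SK-N-FI, which treats same-numbered arrays as paired, limma called 0, with 471 at an unadjusted p under 0.05, and with the numbers crossed, an alternative chosen after seeing the data, it called 0, with 924. Leaving out arrays 25 and 28 together was also chosen after seeing the data. Between the lines, 12726 probe sets were called in control arrays (10253 higher in SK-N-FI, 2473 in SK-N-AS), 8213 among those above the negative controls and 6030 with limma's treat at 2-fold; in treated arrays the counts were 12665, 8168 and 5871, the middle count of each following from fewer probe sets tested and the last from the stricter threshold. The split turned with the scaling, to 4897 higher in SK-N-FI against 5124 higher in SK-N-AS with quantile normalization and to 5969 and 7485 with median centring.

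Of 520 values of the 9 genes under alternatives, 470 kept direction and side of the threshold, 34 changed sign, and with the sign kept 14 lost their call and 2 gained one. Among the sign changes 2 calls were lost (CCND3), 1 was gained (CDK4), 1 was made in both directions (CCND3) and 30 had no call either way. CCND1, CDKN1B and RB1 kept their call between the lines under every alternative in control and treated arrays, and CDKN2A under all but treat in treated arrays. The signs changed by scaling were CCND3 (0.34) and CDK4 (0.21) with quantile normalization and CDK4 (0.77) with median centring in control arrays, and CCND3 (0.86) and CDK6 (0.053) with quantile normalization and CCND3 (0.020) and CDK4 (0.50) with median centring in treated arrays. Without arrays 25 and 28, the SK-N-AS treatment change of CDKN1B was -0.027, and the differences of treatment effects were -0.20 for CDK6 and 0.025 for CDKN2B. The causes were not tested.

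Leaving out 1 array at a time changed other signs, none of a called value. The SK-N-FI treatment change ranged from -0.31 to 0.0012 for CCND1, from -0.30 to 0.45 for CCND2 and from -0.088 to 0.078 for CDK4. The SK-N-AS treatment change ranged from -0.47 to 0.80 for CDK6, from -0.15 to 1.03 for RB1, from -0.13 to 0.032 for CCND1 and from -0.18 to 0.13 for CDKN2A. The difference of effects ranged from -0.066 to 0.24 for CCND1, from -0.71 to 0.56 for CDK6, from -0.18 to 0.57 for CCND2, from -0.20 to 0.10 for CDKN2B and from -0.23 to 0.94 for RB1. The control difference of CDK4 between the lines ranged from -0.20 to 0.029. With dim probe sets left out, CCND2 and CDKN2B had no value, and CDKN2A had none in the SK-N-FI comparison. Signal near background limits CCND2, CDKN2A, CDKN2B and, in array 25, CDK6.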
